A study of Homo sapiens with 19 samples.

Results

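The effect of silencing BRG1 on each gene was set against the effect of silencing MITF in 501Mel cells, a human melanoma line. Each effect came from its own set of libraries with its own scramble control. BRG1 silencing was measured in 3 shBRG1 and 3 shSCR1 libraries, and MITF silencing in 2 shMITF and 2 shSCR2 libraries. These are 10 of the 19 RNA-seq libraries of the series. The other 9 come from Hermes 3A, a line of untransformed human melanocytes, with shSCR, shBRG1 or shMITF (3 libraries each). All cells carried a lentiviral short hairpin RNA, with 1 hairpin per target, so that the loss of a target and any other action of its hairpin cannot be told apart. The labels do not say whether shSCR1 and shSCR2 are different vectors, when the cells were collected or whether replicates were separate infections. The p-values therefore measure only the spread between these libraries, which may be technical.

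The quantity described is the difference of effects, the log2 fold change with shBRG1 (against shSCR1) minus the log2 fold change with shMITF (against shSCR2). A negative difference means that a gene lay lower after BRG1 silencing than after MITF silencing, each relative to its own scramble. Genes had to be listed in all 10 count tables, which held for 39165 of the 44526 genes listed in any of them. Of these, 22255 had enough counts to be tested. A gene was called when the Benjamini-Hochberg adjusted p of edgeR's quasi-likelihood test was under 0.05 and the log2 value was over 1 in size. Levels are given in CPM (a gene's counts relative to the library total) after TMM scaling over the 10 libraries, and values after ± are standard errors of log2 values.

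MITF is the transcription factor that directs the melanocyte lineage, and in melanoma it also sustains proliferation and survival. It switches on melanin genes through E-box and M-box sequences near their starts. BRG1, the product of SMARCA4, is the ATPase motor of SWI/SNF chromatin remodelling complexes, which move nucleosomes. The study reports that MITF and SOX10 recruit BRG1 to many sites in the genome. It also reports that silencing BRG1 left MITF binding little changed or increased at many shared sites. A remodeller serves many factors at once, and the comparison asks which genes change more with BRG1 silencing than with MITF silencing, and which react in opposite ways.

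The 10 libraries held between 31651379 and 78857900 counts. Replicates of the shSCR1 and shBRG1 groups were close, with a biological coefficient of variation of 4.59% and 4.67%, whereas it was 16.9% for shSCR2 and 18.2% for shMITF. The test pools these into a single spread, and a fit with a spread per group (limma voom, added after the data were seen) called 3110 lower and 2096 higher differences. shBRG1 libraries had counts on 32949 to 33772 genes, against at most 29815 in any other 501Mel library. The scramble groups themselves differed at 6989 of the 22255 genes (31.4% called, 4461 of them higher with shSCR1). A difference of effects can therefore come from the silenced cells or from the scrambles. Beside the main results the 2 silenced groups are also set directly against each other. This direct value equals the difference of effects plus the log2 value of shSCR1 against shSCR2, and is not an independent check. It also crosses the 2 sets of libraries, and anything that differed between these sets stays in it. All 8 melanocyte markers (MITF, SOX10, TYR, TYRP1, DCT, PMEL, MLANA and S100B) were present in every library, with a summed level of 31947 to 34572 CPM with shSCR1, 3241 to 3553 with shBRG1, 22868 to 25419 with shSCR2 and 12768 to 12974 with shMITF. Of the fibroblast markers 5 of 6 were tested (not COL1A2, at 0 to 10 counts), and their sum was 3.96 to 5.35 CPM with shSCR1, 16.5 to 20.04 with shBRG1, 8.85 to 10.5 with shSCR2 and 8.37 to 15.5 with shMITF. Of the leukocyte markers PTPRC had 0 to 4 counts and was not tested, while the sum of CD14 and LYZ was 0.475 to 0.824 CPM with shSCR1, 2.8 to 3.46 with shBRG1, 0.324 to 0.402 with shSCR2 and 1.62 to 3.04 with shMITF. The part of these other-cell markers in the results was not tested.

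Each hairpin lowered its target. SMARCA4 stood at 194, 212 and 201 CPM with shSCR1, 38.9, 42.2 and 37.6 with shBRG1, 358 and 358 with shSCR2 and 335 and 309.6 with shMITF. The shBRG1 libraries lay under all others, 5.11-fold below shSCR1, while the shMITF value was -0.15 ± 0.08 relative to shSCR2 and was not called. The difference of effects was -2.20 ± 0.11 (edgeR adjusted p = 5.3e-10). MITF stood at 558, 661 and 659 CPM with shSCR1, 217, 198 and 228 with shBRG1, 1152 and 1294 with shSCR2 and 542 and 612 with shMITF. It fell under both hairpins, by 1.54 on the log2 scale with shBRG1 and by 1.08 with shMITF, and the difference of -0.46 ± 0.13 was under the fold threshold (edgeR adjusted p = 0.01). Directly compared, the shBRG1 libraries held less MITF RNA than the shMITF libraries (-1.43 ± 0.09). At MITF targets, a deeper fall with shBRG1 than with shMITF therefore cannot be told apart from this deeper loss of MITF. The shSCR2 libraries held more MITF than the shSCR1 libraries (log2 difference of shSCR1 from shSCR2 -0.97 ± 0.09), so that the shMITF libraries overlapped the shSCR1 range. RNA from the whole population was measured, and fewer silenced cells cannot be told apart from less RNA in each cell.

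The difference of effects was called at 6072 of the 22255 genes tested (27.3%), with 3447 lower (15.5%) and 2625 higher (11.8%). Among the 14918 protein-coding genes alone, 2858 were lower and 1472 higher. By library sizes in place of TMM the split of all genes was 2665 lower and 3586 higher, since their median moved from 0.02 to 0.24. Directions are given by TMM, and the list medians that changed sign by library sizes were those of the BCL2 family, the glycolysis and hypoxia genes and the added list of other chromosome 19 genes (0.03). Of the genes, 3733 fell (16.8%) and 4821 rose (21.7%) with shBRG1, 38.4% in all, while 922 fell (4.14%) and 1596 rose (7.17%) with shMITF, 11.3% in all. The largest classes were genes called with shBRG1 alone, 2044 lower and 1834 higher. With shMITF alone 182 genes were lower and 450 higher. Another 130 genes fell under both hairpins but deeper with shBRG1, 17 fell deeper with shMITF, 102 rose more with shBRG1 and 28 rose more with shMITF. Genes that reacted in opposite ways numbered 196 with shBRG1 down and shMITF up, and 63 with shBRG1 up and shMITF down. The remaining 599 lower and 427 higher differences came from effects that were not called singly. By contrast 348 genes fell and 525 rose under both hairpins without a called difference. Among the shBRG1-alone genes that rose, 41.8% averaged under 100 counts in their highest group, near the 37.3% of all genes tested. Among those that fell it was 17.4%. Set directly against shMITF, shBRG1 was lower at 17.1% and higher at 26.3% of all genes (43.4% together), and 1177 of the 2044 lower and 1307 of the 1834 higher genes were called in the same direction.

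**Figure D1:**
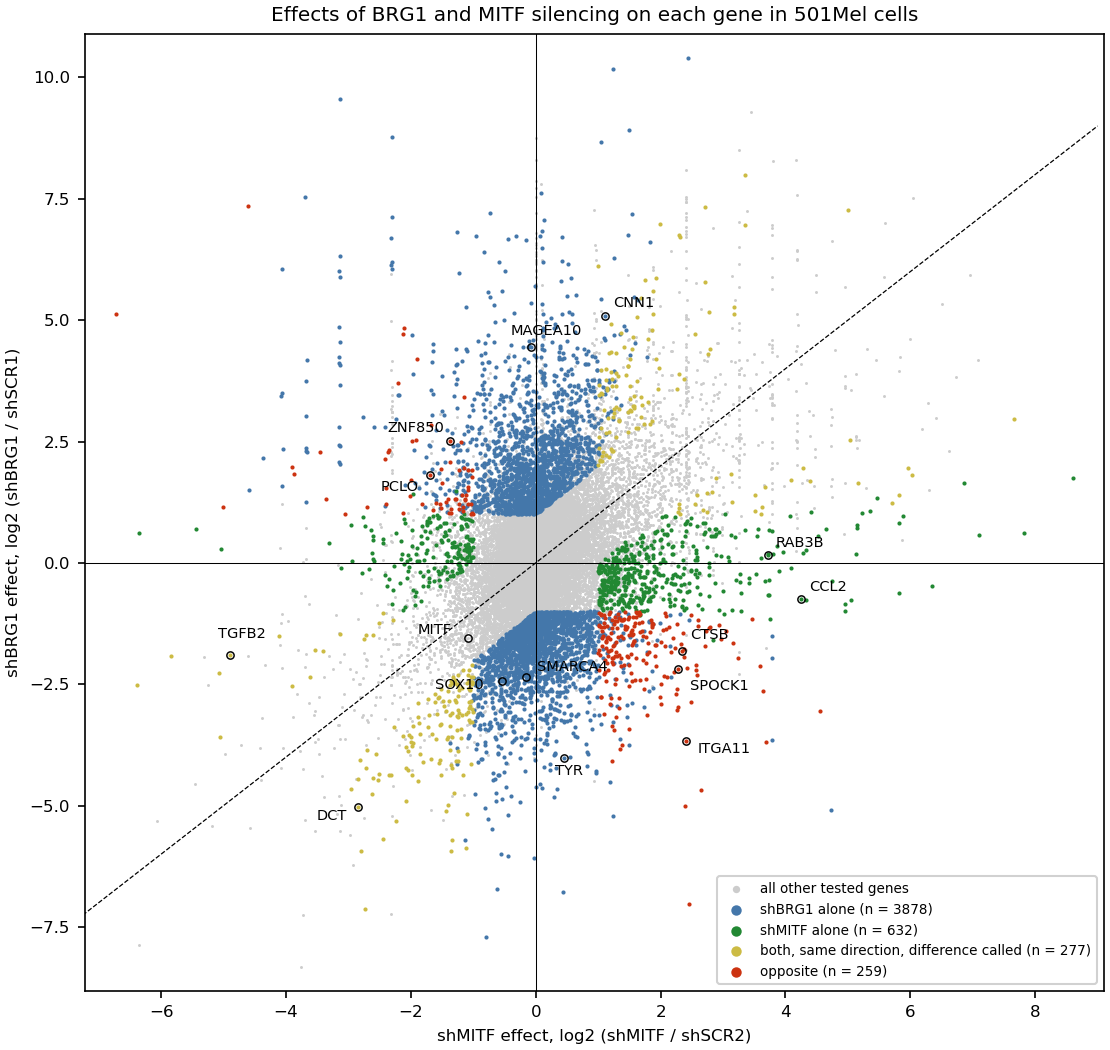
Effect of shMITF (horizontal, log2 of shMITF over shSCR2) and of shBRG1 (vertical, log2 of shBRG1 over shSCR1) on each of the 22255 tested genes in 501Mel cells, 1 point per gene, coloured by class; the dashed line marks equal effects. TYR and SMARCA4 lie far below the line near a shMITF effect of 0, and the 259 opposite-reacting genes fill the lower right and upper left.

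Of 15 tested transcription factors of the melanocyte lineage 8 fell with shBRG1 and 3 with shMITF. The difference was lower for 6 and higher for none, with a median of -0.82, against 15.5% lower and a median of 0.02 over all genes. Of the 6, 4 had fallen with shBRG1 and 4 were lower in the direct comparison. SOX10, the neural crest factor that activates MITF, stood at 513, 544 and 503 CPM with shSCR1, 97.1, 91.6 and 99.95 with shBRG1, 617 and 694 with shSCR2 and 519 and 380.5 with shMITF. The shBRG1 libraries were 5.4-fold below shSCR1 with no overlap, the shMITF effect was -0.54 ± 0.12 and not called, and the difference was -1.89 ± 0.15 (edgeR adjusted p = 1.1e-07). POLR2F overlaps the whole of SOX10 on the other strand, and its own difference was 0.77, in the other direction. PAX3, which acts with SOX10 on the MITF promoter, stood at 104, 103 and 98.02 CPM with shSCR1, 58.2, 55.7 and 57.2 with shBRG1, 63.8 and 86.7 with shSCR2 and 124 and 118 with shMITF. All shBRG1 libraries were the lowest and both shMITF libraries the highest. Neither of its effects passed the fold threshold (-0.83 ± 0.09 with shBRG1 and 0.68 ± 0.11 with shMITF), but they pointed in opposite ways and the difference of -1.51 ± 0.14 was called (edgeR adjusted p = 3.8e-07). IRF4, a regulator of pigmentation that works with MITF at TYR, had a difference of -2.61 ± 0.38 (edgeR adjusted p = 5.3e-04), with mean levels of 36.8 CPM with shSCR1, 3.44 with shBRG1, 73.2 with shSCR2 and 41.9 with shMITF. ETV1, an ETS factor of the MAPK pathway, gave -2.66 ± 0.15 and its relative ETV5 -1.31 ± 0.16. TFAP2A, a partner of MITF at pigment genes, gave -1.27 ± 0.14. For ETV5 and TFAP2A the direct comparison of shBRG1 with shMITF was under the threshold (-0.46 and -0.92). LEF1, the nuclear effector of WNT signalling, rose with both hairpins (1.41 ± 0.12 and 1.30 ± 0.14), and its difference of 0.11 ± 0.18 was not called.

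Pigment genes fell further with BRG1 silencing than with MITF silencing, and MITF RNA itself was lower with shBRG1. Of 28 tested, 18 fell with shBRG1 and 5 with shMITF, 16 had a lower difference and none a higher one (median -1.22), and 14 of the 16 were also lower when shBRG1 was set directly against shMITF. Of the 16, 11 were called with shBRG1 alone, 4 fell with both hairpins but deeper with shBRG1, and for 1 (RAB38) neither effect was called. TYR encodes tyrosinase, the rate-limiting enzyme of melanin synthesis, TYRP1 and DCT the enzymes that follow it. Their promoters are shown because all 3 hold the M-box core bound by MITF, yet the shMITF effects on them differed in size. The 250 bases before each RefSeq start (GRCh38.p14) are given on the strand of the gene, with TCATGTG or its reverse complement CACATGA in capitals. They lie at chr11:89177625-89177874 (+, TYR), chr9:12693135-12693384 (+, TYRP1) and chr13:94479683-94479932 (-, DCT, the 1 of its 2 starts that has the motif).
TYR: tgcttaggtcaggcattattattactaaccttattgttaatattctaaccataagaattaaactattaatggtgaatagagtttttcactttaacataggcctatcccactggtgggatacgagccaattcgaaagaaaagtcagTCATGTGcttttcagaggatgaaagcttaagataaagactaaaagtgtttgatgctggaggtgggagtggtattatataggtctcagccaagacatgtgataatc
TYRP1: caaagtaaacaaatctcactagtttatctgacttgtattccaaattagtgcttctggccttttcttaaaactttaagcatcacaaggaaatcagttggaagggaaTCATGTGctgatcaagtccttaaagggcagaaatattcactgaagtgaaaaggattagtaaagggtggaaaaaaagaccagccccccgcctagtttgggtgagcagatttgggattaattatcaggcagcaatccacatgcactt
DCT: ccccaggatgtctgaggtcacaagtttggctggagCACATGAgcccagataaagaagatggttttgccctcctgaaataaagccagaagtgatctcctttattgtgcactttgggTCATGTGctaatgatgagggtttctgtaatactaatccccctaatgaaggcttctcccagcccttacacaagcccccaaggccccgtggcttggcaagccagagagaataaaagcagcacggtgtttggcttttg
The motif begins 105 bases before the start in TYR, 145 in TYRP1, and 215 and 135 in DCT. It occurred in 1026 of 35116 RefSeq promoter windows (250 bases before to 50 after the start) (2.92%).

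TYR stood at 1356, 1404 and 1372 CPM with shSCR1, 88.3, 76.02 and 89.1 with shBRG1, 657 and 670.2 with shSCR2 and 758 and 1054 with shMITF. It was 16.3-fold lower with shBRG1, whereas the shMITF libraries lay above their scramble by 0.45 ± 0.12, which was not called, and under the shSCR1 libraries (shSCR1 minus shSCR2 1.05 ± 0.12). The difference was -4.48 ± 0.17 (edgeR adjusted p = 1.3e-10), and the direct comparison gave -3.42 ± 0.12. TYRP1 stood at 6077, 6773 and 6643 CPM with shSCR1, 443, 354 and 394 with shBRG1, 7637 and 10102 with shSCR2 and 5305 and 4354 with shMITF. It fell 16.4-fold with shBRG1 while the shMITF value of -0.88 ± 0.14 was under the fold threshold, and the difference was -3.16 ± 0.18 (edgeR adjusted p = 7.2e-09). DCT stood at 1461, 1852 and 1812 CPM with shSCR1, 57.2, 40.2 and 58.7 with shBRG1, 1657 and 1205 with shSCR2 and 188 and 209.6 with shMITF. Unlike the others it fell strongly with both hairpins, 32.8-fold with shBRG1 and 7.19-fold with shMITF, and still differed by -2.19 ± 0.27 (edgeR adjusted p = 9.0e-05). PMEL, the amyloid scaffold of the melanosome, stood at 20743, 21989 and 20840.4 CPM with shSCR1, 2485, 2335 and 2369.7 with shBRG1, 10047 and 10332 with shSCR2 and 5128 and 5566 with shMITF, with a difference of -2.21 ± 0.11 (edgeR adjusted p = 9.1e-10). MLANA, a melanosome protein known as an immune antigen, stood at 1204, 1318 and 1288 CPM with shSCR1, 159, 141 and 152 with shBRG1, 1057 and 1095 with shSCR2 and 499 and 569 with shMITF, with a difference of -2.07 ± 0.12 (edgeR adjusted p = 2.2e-09). In all 5 genes every shBRG1 library lay under every other library.

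OCA2, a chloride channel that sets melanosome pH, stood at 77.1, 88.9 and 84.4 CPM with shSCR1, 5.54, 4.84 and 5.31 with shBRG1, 78.03 and 84.5 with shSCR2 and 65.4 and 48.3 with shMITF, a difference of -3.48 ± 0.17 (edgeR adjusted p = 6.0e-10). SLC45A2 stood at 916, 1036 and 1007 CPM with shSCR1, 182, 184 and 199.5 with shBRG1, 887 and 1258 with shSCR2 and 1252 and 1515 with shMITF, a difference of -2.76 ± 0.18 (edgeR adjusted p = 5.9e-08), and its shMITF libraries overlapped their scramble. SLC24A5, GPNMB and GPR143 gave -2.64, -2.51 and -2.04. Over the 28 pigment genes 22 differences were negative, the highest was 0.93, and 1 gene was called higher with shBRG1. Among the 12 without a called difference, AP3B1, BLOC1S6 and HPS5 were at -0.10, 0.02 and 0.12. KIT, the receptor for stem cell factor on melanocytes, stood at 527, 557 and 551 CPM with shSCR1, 117, 106 and 124 with shBRG1, 278 and 326 with shSCR2 and 417 and 395 with shMITF. It was 4.71-fold lower with shBRG1, its shMITF value was 0.43 ± 0.09, and the difference was -2.66 ± 0.12 (edgeR adjusted p = 3.8e-10). TRPM1, a melanocyte ion channel and MITF target, gave -1.82 ± 0.11. EDNRB and MC1R, the receptors for endothelin and melanocortin, were at -0.84 and -0.75 and were not called.

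**Figure D2:**
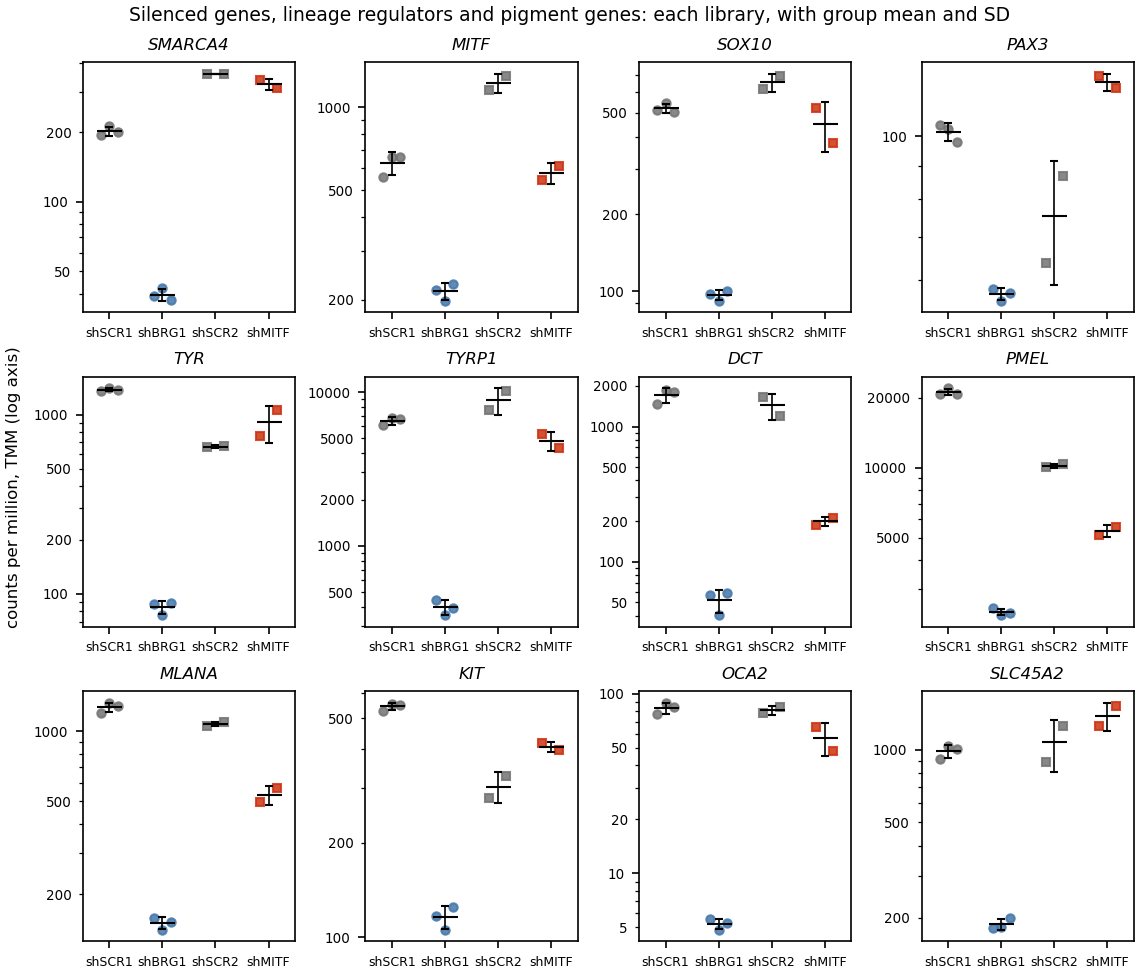
Level of the silenced genes (SMARCA4, MITF), of 2 lineage regulators and of 8 pigment or melanocyte genes in each 501Mel library, in CPM after TMM on a log axis, with the group mean (bar) and SD (n = 3, 3, 2 and 2 libraries). The shBRG1 libraries are lowest in every panel, and of the pigment genes DCT falls furthest with shMITF.

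Genes of cell division fell with both hairpins, and more of them with shBRG1. Of 28 mitosis genes 22 fell with shBRG1 and 8 with shMITF. The difference was lower for 9 and higher for none (median -0.71), and all 9 were lower in the direct comparison too. CENPF, a kinetochore protein, stood at 305, 325 and 314 CPM with shSCR1, 40.03, 37.9 and 40.8 with shBRG1, 556 and 508 with shSCR2 and 267 and 239 with shMITF, with a difference of -1.92 ± 0.11 (edgeR adjusted p = 2.0e-09). MKI67, which coats mitotic chromosomes, gave -1.57 ± 0.14, CCNB1, the mitotic cyclin, -1.55 ± 0.12, and CENPE, a kinetochore motor, -1.47 ± 0.13. NUF2 gave -1.15 ± 0.10, whereas its partner SPC25 was at -0.54 ± 0.17 and was not called. CDK1, AURKB and KIF20A, with differences of 0.94, 0.30 and 0.47 that were not called, passed the test with shMITF and not with shBRG1. By library sizes the counts over the mitosis genes were 5 lower and 1 higher.

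Of 33 DNA replication genes 10 fell with shBRG1 and 6 with shMITF. The difference was lower for 3 and higher for 1, with a median of 0.01, next to that of all genes. The silenced groups set directly against each other gave another picture, with 20 of the 33 lower with shBRG1 and none higher (median -1.06), and 14 members were also lower in shSCR1 than in shSCR2. The 3 lower differences were those of PCNA, the sliding clamp of DNA polymerase (-1.48 ± 0.11), and of the helicase subunits MCM6 (-1.21 ± 0.12) and MCM5 (-1.05 ± 0.13). The single higher one was POLE2 (1.01 ± 0.18), which was not called when the silenced groups were compared directly (-0.13). MCM5 and POLE2 lie near the threshold, and each lost its call without any 1 of 3 libraries. CDK2, a kinase of the G1 to S transition, stood at 1444, 1604 and 1561 CPM with shSCR1, 214, 204 and 226 with shBRG1, 1352 and 1343 with shSCR2 and 643 and 668 with shMITF, with a difference of -1.80 ± 0.11 (edgeR adjusted p = 4.1e-09). Its whole extent (chr12:55966769-55972784, GRCh38) is overlapped on the other strand by PMEL, whose counts were 21191 CPM with shSCR1. The strand setting of the counting is not given in the sources used here, and without strand reads of the 2 genes cannot be told apart. The CDK inhibitor CDKN1C had a difference of -5.02 ± 0.24, with 20.2, 21.5 and 20.9 CPM with shSCR1 against 1.22 and 0.922 with shSCR2, and 1.13, 1.13 and 1.16 with shBRG1 against 1.69 and 1.97 with shMITF. The shSCR1 libraries alone were high, and the direct comparison gave -0.69 ± 0.17. CDKN1B (-1.27 ± 0.15) was lower in the direct comparison too (-1.53 ± 0.11).

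Lipid synthesis genes were lower with shBRG1 relative to shMITF. Of 26 sterol and fatty acid synthesis genes 11 had a lower difference and 1 a higher one (median -0.85). None rose and 14 fell with shBRG1, and 1 fell with shMITF. SCD, which makes monounsaturated fatty acids, stood at 679.5, 752 and 729 CPM with shSCR1, 57.7, 47.4 and 54.4 with shBRG1, 799 and 603 with shSCR2 and 436 and 365 with shMITF, with a difference of -2.95 ± 0.17 (edgeR adjusted p = 1.1e-08). INSIG1, which retains the sterol sensor, gave -1.95 ± 0.10 (directly -0.65, not called) and MSMO1, a sterol oxidase, -1.86 ± 0.12. TM7SF2 (-1.85 ± 0.17) lay on the other side when the silenced groups were compared directly (0.67 ± 0.12, not called).

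Of 29 lysosome genes 13 had a lower difference and 1 a higher one (median -0.93), but only 5 of the 13 were lower in the direct comparison. The scrambles differed at 7 members, 6 being higher with shSCR1 and 1 lower. ATP6V1H, a subunit of the proton pump, gave -2.08 ± 0.10 and directly -1.75 ± 0.07. ATP6V0D2 was the higher one (3.40 ± 0.97), at no more than 0.635 CPM in any library. Without shSCR2 replicate 1 its call was lost. Of 57 oxidative phosphorylation genes, a list that counts PPARGC1A, 9 were lower and none higher, with a median of -0.42. These 15.8% lay near the 15.5% lower over all genes, and 2858 of the 14918 protein-coding genes were lower. By library sizes 3 were lower. PPARGC1A, the coactivator that drives mitochondrial biogenesis downstream of MITF, stood at 149, 173 and 167 CPM with shSCR1, 16.2, 13.5 and 17.3 with shBRG1, 253 and 286 with shSCR2 and 87.9 and 74.7 with shMITF. It fell with both hairpins, 10.4-fold with shBRG1 and 3.32-fold with shMITF, with a difference of -1.65 ± 0.15 (edgeR adjusted p = 4.7e-07). NDUFS1 of complex I and SDHA of complex II gave -1.26 ± 0.12 and -1.28 ± 0.10.

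Genes that reacted in opposite ways were ranked by the smaller of their 2 effects. ITGA11, a collagen-binding integrin, stood at 2.83, 2.25 and 2.09 CPM with shSCR1, 0.123, 0.269 and 0.166 with shBRG1, 0.539 and 0.134 with shSCR2 and 0.726 and 2.15 with shMITF, a difference of -6.06 ± 0.79 (edgeR adjusted p = 5.2e-05). It was carried by few reads, with 15 and 9 counts in the shSCR2 libraries, and the scrambles differed by 3.12 ± 0.57, more than its shMITF effect (2.40 ± 0.62). The direct value was -2.94 ± 0.54. For SPOCK1 and IGFBP5 the scrambles differed by 1.04 ± 0.28 and 1.44 ± 0.40, and the direct values were -3.42 ± 0.28 and -3.42 ± 0.38. SPOCK1, a secreted proteoglycan, stood at 33.1, 34.9 and 33.8 CPM with shSCR1, 7.21, 7.3 and 7.83 with shBRG1, 10.3 and 21.9 with shSCR2 and 64.1 and 95.4 with shMITF. It fell 4.56-fold with shBRG1 and rose 4.84-fold with shMITF, so that the shMITF libraries were the highest and the shBRG1 libraries the lowest, and the difference was -4.46 ± 0.41 (edgeR adjusted p = 2.9e-05). IGFBP5, a binder of insulin-like growth factors, stood at 8.71, 8.49 and 8.4 CPM with shSCR1, 1.69, 1.02 and 1.49 with shBRG1, 4.93 and 1.75 with shSCR2 and 18.6 and 11.5 with shMITF, a difference of -4.87 ± 0.56 (edgeR adjusted p = 6.8e-05). PDGFD, a growth factor of the PDGF family, stood at 10.3, 11.1 and 11.7 CPM with shSCR1, 3.05, 2.49 and 3.23 with shBRG1, 12.7 and 13.4 with shSCR2 and 29.02 and 34.98 with shMITF. Its scramble groups were alike (-0.24 ± 0.13, not called), and the difference of -3.21 ± 0.19 (edgeR adjusted p = 3.0e-09) was nearly the same directly (-3.45 ± 0.13).

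CTSB, the lysosomal protease cathepsin B, stood at 6144, 5466 and 5177 CPM with shSCR1, 1577, 1589.5 and 1593 with shBRG1, 1254 and 1167 with shSCR2 and 4784 and 7508 with shMITF. It fell 3.53-fold with shBRG1 and rose 5.08-fold with shMITF, a difference of -4.16 ± 0.22 (edgeR adjusted p = 1.3e-08). The shMITF libraries were near the level of shSCR1, and the shBRG1 libraries near that of shSCR2. Directly, shBRG1 lay -1.95 ± 0.14 from shMITF. A2M, a protease inhibitor, stood at 269, 248 and 241 CPM with shSCR1, 51.6, 41.2 and 42.4 with shBRG1, 39.7 and 17.95 with shSCR2 and 140.3 and 85.7 with shMITF, with a difference of -4.49 ± 0.49 and a direct value of -1.33 ± 0.33. ABCG4, a sterol transporter, and LRRC73 had the same pattern, with differences of -5.31 ± 0.44 and -4.45 ± 0.40 and direct values of -2.37 ± 0.30 and -2.31 ± 0.27. Across the 196 genes of this class the scrambles were called different at 152 (77.6%, against 31.4% of all genes), 150 of them higher with shSCR1. The direct comparison was lower at 126 and higher at 6. KDR, the VEGF receptor, is one that changed side, with a difference of -3.61 ± 0.71 and a direct value of 1.13 ± 0.41, and its shSCR2 libraries held 4 and 2 counts.

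In the other direction PCLO, a presynaptic scaffold, stood at 9.04, 9.16 and 10.01 CPM with shSCR1, 33.8, 31.4 and 33.99 with shBRG1, 24.9 and 40.5 with shSCR2 and 9.58 and 10.8 with shMITF. It rose 3.52-fold with shBRG1 and fell 3.23-fold with shMITF, a difference of 3.51 ± 0.23 (edgeR adjusted p = 2.6e-08). Here shBRG1 lay near the shSCR2 level and shMITF near the shSCR1 level, and the direct value was 1.70 ± 0.17. ZNF850, a KRAB zinc finger gene, stood at 7.4, 9.99 and 10.2 CPM with shSCR1, 53.1, 52.8 and 51.6 with shBRG1, 21.2 and 24.6 with shSCR2 and 9.29 and 8.35 with shMITF, with a difference of 3.90 ± 0.18 (edgeR adjusted p = 3.8e-10) and a direct value of 2.57 ± 0.13. CCDC154 gave 3.14 ± 0.29, with its highest levels in the shBRG1 libraries (22.1, 24.3 and 19.5 CPM) and its lowest in the shMITF libraries (1.16 and 1.93 CPM). OR51B5 (3.69 ± 0.25), an odorant receptor gene, overlaps HBE1 on the same strand, which had a difference of 2.38. TRERF1, a zinc finger regulator, gave 3.62 ± 0.58 and APOBEC3B, a cytidine deaminase, 2.59 ± 0.49. Only 63 genes fell in this class, 58.7% of them under 100 counts in the highest group (37.3% of all genes). The scrambles were called different at 33 of the 63 (52.4%, against 31.4% of all genes), 30 of them lower with shSCR1. The direct comparison was higher at 50 and lower at 0. The class held 40 genes without shMITF replicate 2 and 100 without shMITF replicate 1, and the opposite class with shBRG1 down held 128 without shMITF replicate 2.

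**Figure D3:**
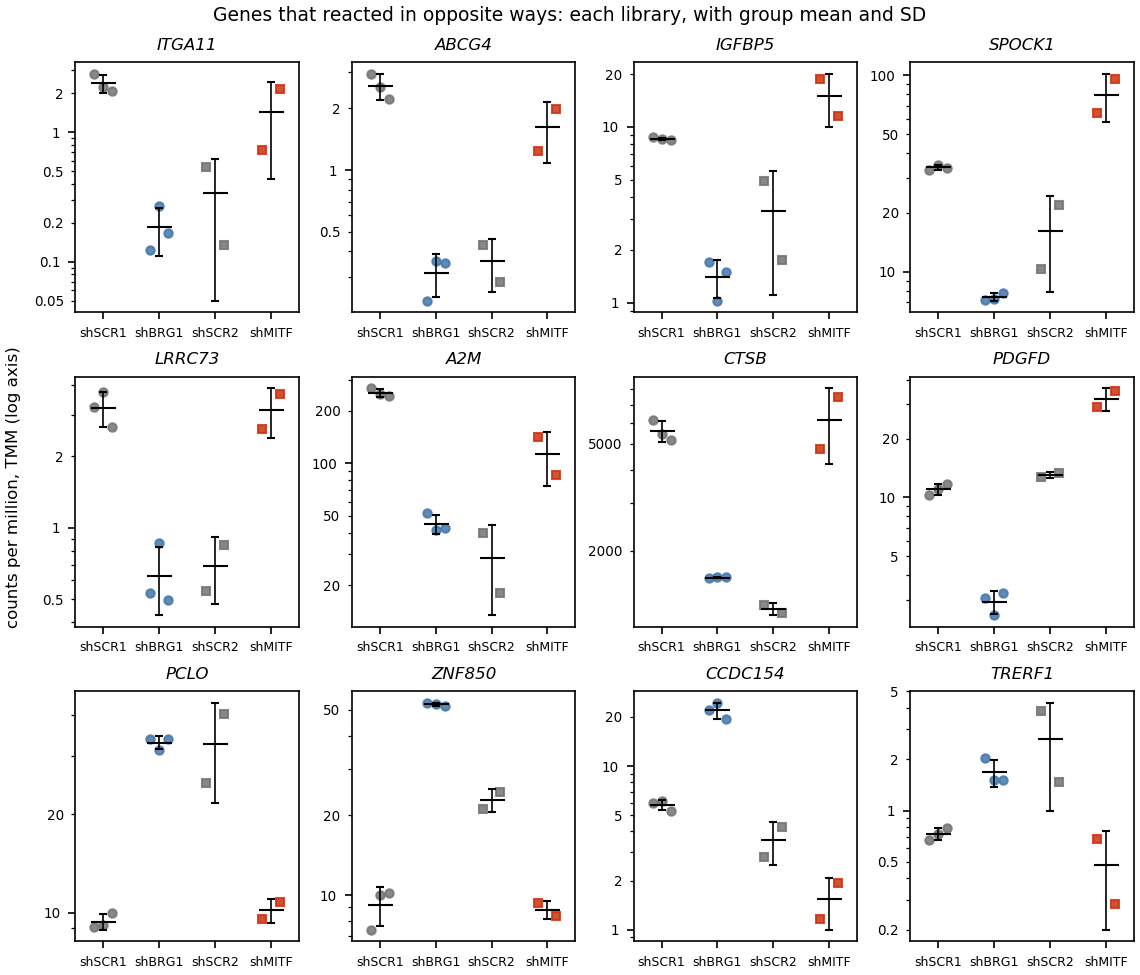
Level of 12 genes called in opposite directions in each 501Mel library, in CPM after TMM on a log axis, with group mean (bar) and SD (n = 3, 3, 2 and 2). In the first 8 panels shBRG1 lies under shSCR1 and shMITF over shSCR2, in the last 4 the reverse. The scramble groups also stand apart in several panels, among them ITGA11, A2M, CTSB, PCLO and ZNF850.

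Among genes that fell with shBRG1 alone and whose shMITF effect was under 0.5 in size, NOX4, an oxidase that makes hydrogen peroxide, stood at 63.7, 69.1 and 69.3 CPM with shSCR1, 3.05, 2.78 and 2.42 with shBRG1, 11.8 and 12.998 with shSCR2 and 10.4 and 14.5 with shMITF. The difference was -4.61 ± 0.19 (edgeR adjusted p = 1.6e-10). CTLA4, an immune checkpoint receptor best known from T cells, stood at 67.8, 71.9 and 70.7 CPM with shSCR1, 4.92, 4.36 and 4.25 with shBRG1, 48.003 and 27.9 with shSCR2 and 38.99 and 52.7 with shMITF, with a difference of -4.24 ± 0.30 (edgeR adjusted p = 2.0e-06). NSG1, an endosomal protein of neurons, gave -4.997 ± 0.20, DHRSX -4.25 ± 0.27, and LINC03040, listed as protein-coding in GENCODE 29 and overlapped in full by SCIRT on the other strand, -5.59 ± 0.59. TYR was the other of the 6 leading genes. For NOX4 and NSG1 the shSCR1 libraries were above the shSCR2 libraries (2.43 and 2.30), and directly the values were -2.17 ± 0.14 and -2.70 ± 0.14. BCL2, the survival factor and MITF target, gave -1.48 ± 0.15, and directly -0.53 ± 0.10, which was not called.

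Zinc finger genes led those that rose with shBRG1 alone. Of the 6 named by size, 3 were ZNF502 (4.61 ± 0.28), ZNF239 (3.95 ± 0.31) and ZNF662 (3.90 ± 0.45), none of them on chromosome 19. For ZNF239 the direct value of 0.90 ± 0.20 was not called, its shSCR2 libraries lying above shSCR1. ZNF502 stood at 0.423, 0.562 and 0.602 CPM with shSCR1, 16.3, 15.7 and 15.7 with shBRG1, 1.65 and 2.05 with shSCR2 and 1.94 and 2.71 with shMITF. MAGEA10, a cancer-testis antigen normally confined to germ cells, stood at 4.19, 3.81 and 4.02 CPM with shSCR1, 93.5, 81.5 and 85.8 with shBRG1, 12.3 and 8.6 with shSCR2 and 10.6 and 8.93 with shMITF, a difference of 4.51 ± 0.20 (edgeR adjusted p = 2.7e-10). The kinases WNK4, of ion transport, and FES, of myeloid signalling, gave 4.04 ± 0.42 and 3.74 ± 0.45. ZNF662 shares its extent with KRBOX1 on the same strand, which had a difference of 2.65, so that reads may have been shared.

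The ZNF genes clustered on chromosome 19, most of which encode KRAB repressors of transposable elements, had the largest share of higher differences among the lists. Of 236 tested, 122 had a higher difference and 8 a lower one (51.7% and 3.39%, against 11.8% and 15.5% of all genes), with a median of 1.14. Of these genes 143 rose with shBRG1 and 23 with shMITF. Of the 122, 94 were called with shBRG1 alone, 11 rose with both hairpins but more with shBRG1, and 66 were higher in the direct comparison. The 238 ZNF genes of other chromosomes, a list added after the first was seen, had 65 higher and 20 lower differences (median 0.41). The 885 other protein-coding genes of chromosome 19, also added, had 74 higher and 177 lower (median -0.20). The scrambles differed little over the chromosome 19 ZNF genes (median of shSCR1 minus shSCR2 -0.22), and their median difference lay at 1.37 by library sizes and at 0.95 without shSCR2 replicate 2. These genes are similar in sequence, and how the counting treated reads that fit several is not given in the sources used here. ZNF93, a repressor of LINE-1 elements, had 3, 8 and 1 counts with shSCR1, 113, 93 and 78 with shBRG1, 9 and 12 with shSCR2 and 8 and 6 with shMITF. ZNF781 rose from 0.423, 0.146 and 0.19 CPM with shSCR1 to 10.3, 8.86 and 8.12 with shBRG1, and stood at 0.288 and 0.164 with shSCR2 and 0.121 and 0.477 with shMITF. ZFP30 overlaps it on the same strand, with a difference of 3.19.

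**Figure D4:**
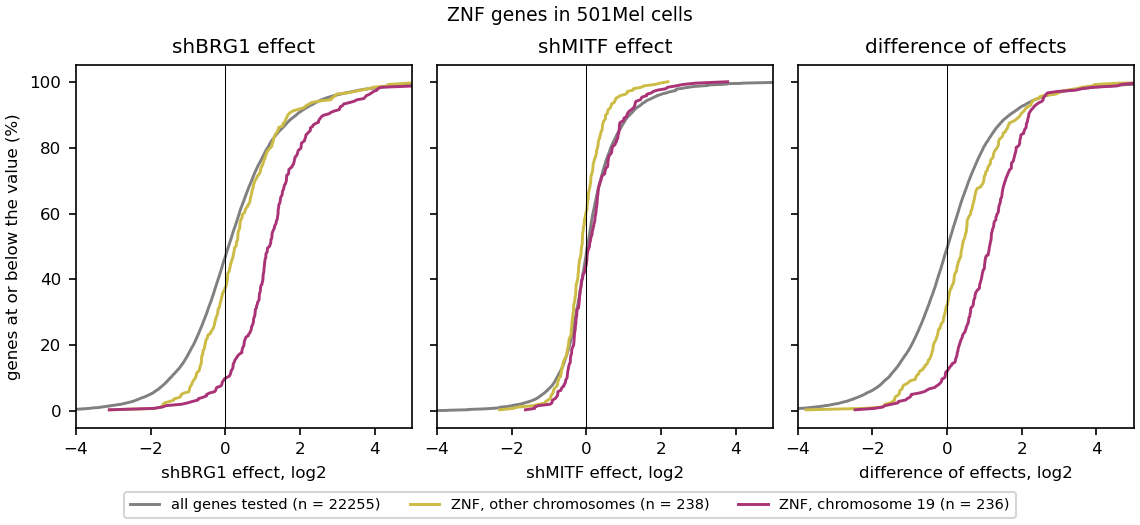
Cumulative share of genes (vertical, %) at or below a given shBRG1 effect, shMITF effect and difference of effects (horizontal, log2, cut at -4 and 5) for ZNF genes of chromosome 19, ZNF genes of other chromosomes and all genes tested. The chromosome 19 curve is shifted to the right for shBRG1 (median 1.19) and lies on that of all genes for shMITF (median 0.09).

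Few genes answered to shMITF alone. At the 182 that fell, the scrambles were called different at 77 (42.3%, against 31.4% of all genes), 67 of them lower with shSCR1. The direct comparison was higher at 93 and lower at 9. At the 450 that rose, the scrambles were called different at 282 (62.7%), 273 of them higher with shSCR1. There the direct comparison was lower at 154 and higher at 44. Of those that rose while the shBRG1 effect was under 0.5 in size, RAB3B, a GTPase of vesicle exocytosis, stood at 15.7, 14.99 and 16.5 CPM with shSCR1, 18.2, 15.8 and 18.9 with shBRG1, 6.18 and 7.69 with shSCR2 and 92.6 and 92.4 with shMITF. It rose 13.1-fold with shMITF, and the difference was -3.55 ± 0.15 (edgeR adjusted p = 2.1e-10). SEMA3D, a guidance ligand, gave -4.07 ± 0.34, KRT23, a keratin, -4.08 ± 0.54, and NPTX1, a neuronal pentraxin, -4.07 ± 0.72. SHC4, an adaptor of receptor tyrosine kinases in melanoma, stood at 4.08, 4.75 and 4.41 CPM with shSCR1, 3.79, 3.46 and 3.34 with shBRG1, 17.3 and 16.4 with shSCR2 and 93.6 and 59.7 with shMITF, with a difference of -2.51 ± 0.23 (edgeR adjusted p = 5.2e-07) and a direct value of -4.44 ± 0.16. SLC2A1, the glucose transporter, rose 5.19-fold with shMITF, with a difference of -2.48 ± 0.24, and SLC7A11, the cystine transporter, gave -2.59 ± 0.40. Genes that fell with shMITF alone were led by PKD1L1 (2.83 ± 0.23), COL12A1 (2.94 ± 0.88), ARHGEF28 (2.68 ± 0.71) and DYNLT2B (2.33 ± 0.25). PKD1L1, a polycystin, stood at 7.26, 6.95 and 5.8 CPM with shSCR1, 7.72, 7.28 and 8.02 with shBRG1, 9.82 and 7.85 with shSCR2 and 1.31 and 1.52 with shMITF. COL12A1 moved to 5.44 without shMITF replicate 1 and lost its call without shSCR2 replicate 2. ARHGEF28 lost its call without shMITF replicate 2 and moved to 1.53 without shSCR2 replicate 1. TGFB2, a ligand of the TGF-beta family, fell with both hairpins but deeper with shMITF (5.14 and 5.18 CPM with shSCR2 and 0.145 and 0.195 with shMITF), a difference of 3.00 ± 0.29 (edgeR adjusted p = 5.2e-07). LDHA and HK2, of glycolysis, fell with shMITF alone, with differences of 1.24 ± 0.15 and 1.07 ± 0.26. HK2 lost its call without shMITF replicate 2 and, at 0.64, without shSCR2 replicate 1.

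Of 25 integrin and laminin genes 14 had a lower difference and 2 a higher one (median -1.40), and 8 of the 14 were lower directly. ITGA7, a laminin receptor, stood at 592, 675 and 652 CPM with shSCR1, 29.97, 32.7 and 30.4 with shBRG1, 181 and 141 with shSCR2 and 42.2 and 70.6 with shMITF, with a difference of -2.86 ± 0.27 (edgeR adjusted p = 2.0e-05) and a direct value of -0.86 ± 0.19 that was not called. LAMA5, a laminin chain, gave -3.28 ± 0.44, and LAMB2 -2.83, and neither was called directly. LAMA2, a chain of laminins in muscle and nerve, was higher (2.27 ± 0.39). Of 30 collagen and matrix genes 10 were lower and 6 higher (median -0.75), but directly 4 were lower and 14 higher (median 0.56). Of the 10, 2 were lower directly, and 15 members were higher in shSCR1 than in shSCR2. COL5A1, a fibrillar collagen, stood at 3.01, 3.56 and 3.74 CPM with shSCR1, 40.04, 42.4 and 40.1 with shBRG1, 6.72 and 11.1 with shSCR2 and 6.54 and 4.58 with shMITF, a difference of 4.29 ± 0.28 (edgeR adjusted p = 4.5e-08). COL6A1 gave -2.73 ± 0.36, and TIMP3, an inhibitor of matrix proteases, -2.24 ± 0.33, with a direct value of -0.18 ± 0.22 that was not called. COL6A3 (-2.81 ± 0.37) changed side directly (1.19 ± 0.27).

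Targets of the coactivator YAP rose with both hairpins, 10 of 20 with shBRG1 and 9 with shMITF, and the difference was higher for 6 and lower for 2. NUAK2, a kinase, stood at 3.72, 3.31 and 3.11 CPM with shSCR1, 37.1, 41.6 and 35.7 with shBRG1, 1.73 and 1.9 with shSCR2 and 4.45 and 3.14 with shMITF, with a difference of 2.45 ± 0.23 (edgeR adjusted p = 3.5e-07). CCN2, a matricellular protein, gave 2.04 ± 0.50, but lost its call without shMITF replicate 2 and moved to 1.03 without shSCR2 replicate 2. ANKRD1 gave 2.27 ± 0.49 and moved to 1.47, not called, without shSCR2 replicate 2. The CCN2 relative CCN1 (1.02 ± 0.74) was not called, and moved to 1.66, called, without shSCR2 replicate 1 and to -0.50 without shSCR2 replicate 2. MYOF, a membrane repair protein, rose with shMITF and was not called with shBRG1 (difference -2.03 ± 0.21). The median of the list was 0.70, and -0.11 without shSCR2 replicate 2.

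Secreted signals of inflammation, known from the senescent secretome, rose with both hairpins, 10 of 13 tested genes with shBRG1 and 7 with shMITF. The difference was higher for CXCL1, CXCL2, CXCL3 and IL6, and lower for CCL2 and IL11, with a list median of 0.14. Directly, 9 of the 13 were higher with shBRG1 and 1 lower (median 2.10). The scrambles were called different at many members, 7 being higher with shSCR1 and 2 lower (median 2.29). CCL2, which attracts monocytes, stood at 4.37, 3.62 and 3.68 CPM with shSCR1, 2.2, 2.57 and 2.2 with shBRG1, 0.288 and 0.625 with shSCR2 and 7.79 and 11.4 with shMITF. It rose 18.9-fold with shMITF, and the difference was -4.99 ± 0.35 (edgeR adjusted p = 1.9e-08). The neutrophil chemokine CXCL2 stood at 0.579, 0.375 and 0.507 CPM with shSCR1, 2.47, 2.46 and 2.49 with shBRG1, 0.431 and 0.446 with shSCR2 and 0.581 and 0.325 with shMITF, a difference of 2.32 ± 0.42 (edgeR adjusted p = 3.0e-04). IL6 (3.77 ± 0.77) had 0, 5 and 0 counts with shSCR1, and its difference was 7.76 without shSCR1 replicate 2. CXCL8 and IL24 rose with both hairpins, and their differences of 0.14 ± 0.46 and -0.30 ± 0.40 were not called. Both were higher with shBRG1 when set directly against shMITF (3.54 and 3.89), with shSCR1 above shSCR2 (3.40 and 4.19). IL11 had a difference of -2.60 ± 0.57, lost without shSCR2 replicate 2, and a direct value of 3.39 ± 0.29, on the other side. Of the receptors of undifferentiated melanoma, EGFR gave 2.00 ± 0.68 and AXL -0.91 ± 0.46, which was not called but moved to -1.81, called, without shSCR2 replicate 2 and to -0.60 without shSCR2 replicate 1. The EGFR call was lost without shMITF replicate 2 or shSCR2 replicate 2, at 1.22 without the latter.

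Of 24 p53 target genes 3 rose and 1 fell with shBRG1, and none rose and 1 fell with shMITF. The difference was higher for 6 and lower for 1 (25% and 4.17%, against 11.8% and 15.5% of all genes). Of the 6, only 2 were higher in the direct comparison, GADD45A and PLK3, and the median of the list there was -0.09. GADD45A, a stress sensor, stood at 20.9, 19.3 and 19.7 CPM with shSCR1, 94.2, 103 and 101 with shBRG1, 16.1 and 19.1 with shSCR2 and 25.995 and 37.6 with shMITF, a difference of 1.47 ± 0.18 (edgeR adjusted p = 1.0e-05). AEN, TP53I3, PLK3 and BAX gave 1.49, 1.98, 1.10 and 1.03, and TP53I3, overlapped in full by FAM228B on the other strand, was at -0.40 directly and not called. PLK3 lost its call without shSCR2 replicate 2, at 0.73, and BAX without any 1 of 4 libraries. DDIT3, a stress-response factor of the ATF4 pathway, stood at 36.7, 42.5 and 37.998 CPM with shSCR1, 187, 199 and 179 with shBRG1, 24.2 and 23.9 with shSCR2 and 11.5 and 14.3 with shMITF, with a difference of 3.16 ± 0.14 (edgeR adjusted p = 2.3e-10). Within SWI/SNF only SMARCA4 itself and PHF10, a PBAF subunit (-1.53 ± 0.14), had a called difference among 26 subunits (median -0.46). Set directly against shMITF, 11 subunits were lower with shBRG1 and none higher (median -0.68). The other ATPase, SMARCA2, was at -0.89 ± 0.15.

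In 3 further lists most lower differences were absent from the direct comparison, and the scrambles differed at many members. Of 22 replication-dependent histone genes 14 had a lower difference and 1 a higher one (median -1.91), yet none was lower and 10 were higher when shBRG1 was set directly against shMITF. Their summed level was 207.9 to 252 CPM with shSCR1, 157 to 162 with shBRG1, 19.5 to 25.4 with shSCR2 and 59.6 to 88.1 with shMITF. H1-2, a linker histone, stood at 95.6, 87.05 and 78.02 CPM with shSCR1, 14, 16.4 and 15.8 with shBRG1, 4.31 and 6.74 with shSCR2 and 8.5 and 18.9 with shMITF, a difference of -3.76 ± 0.45 and a direct value of 0.16 ± 0.31. Histone genes are near-identical copies, and their transcripts lack the poly(A) tail of other mRNAs. Of 16 antigen presentation genes 9 were lower and 1 higher (median -1.08), 1 of the 9 lower directly. Of 23 interferon-stimulated genes 8 were lower and 1 higher (median -0.75), 3 of the 8 lower directly. OAS2, an antiviral enzyme, stood at 2.7, 1.69 and 2.0 CPM with shSCR1, 0.758, 0.556 and 0.642 with shBRG1, 0.503 and 0.491 with shSCR2 and 1.04 and 1.84 with shMITF, opposite in its effects, with a difference of -3.24 ± 0.43 and a direct value of -1.15 ± 0.29. The higher one was IFI44L, which had 0, 0 and 0 counts with shSCR1, 21, 22 and 19 with shBRG1, 1 and 3 with shSCR2 and 9 and 2 with shMITF, and whose call was lost without shSCR2 replicate 2.

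Genes that the study had annotated to MITF-associated regulatory elements from its ChIP-seq held more lower differences than the rest. The profiles behind these regions came from several melanoma and melanocyte cell populations, not from 501Mel cells alone. The list has 1511 entries, of which 1264 carry a gene identifier and 247 a name only. Of 1072 genes tested by identifier, 305 had a lower difference and 76 a higher one (28.5% and 7.09%, against 15.5% and 11.8% of all genes), with a median of -0.48. Of these genes, 348 fell with shBRG1 and 91 with shMITF, and 222 of the 305 were lower in the direct comparison. By library sizes the counts were 248 lower and 106 higher. With the entries that have a name only matched by symbol (96 more tested genes, an alternative chosen after the data were seen), they were 325 lower and 86 higher of 1168 (27.8% and 7.36%). In the classes, such genes were 14.6% of those that fell with both hairpins but deeper with shBRG1 and 9.54% of those that fell with shBRG1 alone, against 4.82% of all genes tested and 2.24% of those that rose with shBRG1 alone. Protein-coding genes were 108 of the 130 in the first, 1742 of the 2044 in the second and 926 of the 1834 that rose. Under 100 counts in their highest group were 9.23%, 17.4% and 41.8%, in that order. The part of this make-up in the shares was not tested. The M-box core TCATGTG (either strand) stood in the promoter window of 8 of 94 genes of the first of these classes (8.51%) and of 54 of 1434 of the second (3.77%), beside 378 of the 13345 tested genes with a window (2.83%). The E-box CACGTG, its own reverse complement, was in 12 of 94 (12.8%) and 170 of 1434 (11.9%), beside 1556 of 13345 (11.7%). Among genes that rose, the M-box core was in 28 of 915 with shBRG1 alone (3.06%) and 6 of 295 with shMITF alone (2.03%). It was in 5 of 74 that rose with both but more with shBRG1 (6.76%), and 2 of 18 that rose more with shMITF (11.1%). A higher share was therefore not confined to genes that fell.

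The same difference was measured in other samples, the shBRG1 and shMITF libraries of Hermes 3A melanocytes, where 493 genes were lower and 847 higher with shBRG1 (2.79% and 4.8% of 17652). Of the genes tested in both lines, 177 were lower in both, which is 5.78% of the 3061 lower in 501Mel cells and 40.3% of the 439 lower in melanocytes. Another 154 were higher in both (8.43% of 1826 and 20.1% of 765). In the other direction 174 genes were lower in 501Mel cells and higher in melanocytes, and 21 the reverse. Of the 28 pigment genes 0 were called in either direction in melanocytes, against 16 in 501Mel cells. TYR was at -0.76 ± 0.20 there (edgeR adjusted p = 0.018), under the fold threshold, and SOX10 at -0.68 ± 0.30 (edgeR adjusted p = 0.13). SMARCA4 was at -2.11 ± 0.16 there (edgeR adjusted p = 2.8e-05), close to its value in 501Mel cells. The difference of effects was higher in both lines for IL6 (2.85 ± 0.27 in melanocytes, edgeR adjusted p = 7.6e-05), CXCL2 (2.19 ± 0.32) and ZNF239 (2.21 ± 0.21). For ZNF239 the direct comparison in 501Mel cells, the like measure, was not called. The ZNF genes as lists were not shifted in melanocytes. Of 229 on chromosome 19, 6 were higher and 0 lower there (median 0.06). Of 224 on other chromosomes, 5 were higher and 2 lower (median 0.05). Of the 23 interferon-stimulated genes 21 were higher with shBRG1 in melanocytes and none lower. Both hairpins share a scramble there, so that the difference equals the direct comparison, which in 501Mel cells gave 5 lower and 6 higher (median 0.31). That scramble cancels out, and any offset between the shBRG1 and shMITF libraries of melanocytes stays in the difference. The count tables of those shMITF libraries list 34033 genes, against 42224 for shBRG1 and shSCR. The part of this in the melanocyte values was not tested. OAS2 was at 3.43 ± 0.45 there (edgeR adjusted p = 5.2e-04). Whether these differences of effects differ between the lines was tested for 6 genes only.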

How the data were processed

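RNA-seq of total RNA depleted of ribosomal RNA was deposited for 10 501Mel and 9 Hermes 3A libraries. The files hold whole-number counts per gene, not normalized, which the authors deposited 1 table per library. The submitters' processing notes name CASAVA 1.8, TopHat 1.4.1, Bowtie 0.12.7 and the hg19 build. The counting program, its annotation and its use of strand are not given in the sources used here. Symbols, gene types and overlaps came from GENCODE 29 (GRCh38), matched by identifier, and no coordinate was converted. Promoters came from RefSeq.

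A single edgeR 4.0.16 quasi-likelihood fit (R 4.3.3, TMM, default expression filter, robust spread) of the 10 501Mel libraries gave the shBRG1 and shMITF effects, their difference, the difference of the scrambles and the direct comparison of shBRG1 with shMITF. Hermes 3A libraries were fitted apart, and 6 genes were tested in a fit of all 19. Tested on simulated counts with 200 genes changed by 2 on the log2 scale, the difference recovered 179 and called 6 of the others (21465 genes tested). The simulation gave every group the same spread per gene, whereas the real groups ranged from 4.59% to 18.2%. It also changed far fewer genes than the 27.3% called, so that it does not show the error rate in these data. Single genes were named by rule: among protein-coding genes with at least 100 counts on average in the highest group and 10 in every group, the 6 opposite genes each way with the largest smaller effect and no overlap with their controls, the 6 shBRG1-alone genes each way with the largest difference and a shMITF effect under 0.5, and 4 shMITF-alone genes each way likewise. Up to 4 called members each way of every list, and 31 fixed genes, were also taken. Other list members were named as examples after their values were seen. Members and lists were chosen with earlier results of these data known. Genes that were not tested in a list were too low or absent from a table. DESeq2 1.42.0 and limma 3.58.1 were alternatives, beside library sizes, other filters and thresholds, a replicate block and each library left out. Some genes of these lists enter the counts but are not reported here by name.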

Additional observations from a re-analysis of the deposited data

Results flagged for a closer look

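The difference of effects itself differed between the cell lines for 3 of the 6 genes tested in a single edgeR fit of all 19 libraries. For MITF it was -0.46 in 501Mel cells and 0.43 in Hermes 3A melanocytes, and the difference between lines was -0.82 ± 0.24 (edgeR adjusted p = 0.011). For PAX3 it was -1.51 and -0.64, a difference between lines of -0.81 ± 0.21 (edgeR adjusted p = 0.0059). For TFAP2A it was -1.27 and 0.03, a difference between lines of -1.23 ± 0.32 (edgeR adjusted p = 0.0066). In melanocytes MITF was at -0.43 with shBRG1 and -0.86 with shMITF. SOX10 (-1.14 ± 0.48, edgeR adjusted p = 0.082) and SMARCA2 (-0.65 ± 0.28, edgeR adjusted p = 0.081) did not pass, and SMARCA4 was at -0.02 ± 0.23 (edgeR adjusted p = 0.97). The 501Mel value includes 2 scramble groups that differed, whereas both hairpins shared 1 scramble group in melanocytes, which cancels out. The part of the scrambles, and of any offset between the melanocyte libraries, was not tested.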

How the results depend on the processing

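In the alternatives of scaling, tool and spread, calls kept their direction. Of the 6072, library sizes kept 5290, DESeq2 5308 (3103 lower and 2458 higher in all), a spread per group 5031, and none of them called a gene on the other side. Without shSCR2 replicate 2, the library whose absence cost most, 4758 were kept. In the direct comparison 3391 were kept and 194 were called on the other side. The split by library sizes, 2665 lower and 3586 higher, changed the genes lower with shBRG1 alone to 1345.

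With at least 10 counts in every library there were 2313 lower and 2179 higher shBRG1 effects, 598 and 977 shMITF effects, and 124 and 32 opposite genes (shBRG1 down, shBRG1 up). With no fold threshold the differences numbered 5975 lower and 4729 higher, shBRG1 effects 7541 and 8054, shMITF effects 3956 and 3775, opposite genes 1159 and 694, and genes lower with shMITF alone 530. With the test against a log2 value of 1 the differences numbered 1942 and 1115, higher shBRG1 effects 3002, shMITF effects 234 and 394, opposite genes 33 and 3, shBRG1-alone genes 1334 and 853, and shMITF-alone genes 25 and 126. A spread per group gave 908 higher shMITF effects, 24 opposite genes with shBRG1 up, and 113 and 289 shMITF-alone genes. A fit of shMITF and shSCR2 only gave 602 and 990. By the direct comparison 5854 genes were higher, 126 opposite genes with shBRG1 down remained called, and 2963 genes were higher with shBRG1 alone and 200 with shMITF alone.

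With each library left out in turn, lower differences ranged from 3096 to 3614 and higher ones from 2076 to 2772, and opposite genes from 128 to 254 (shBRG1 down) and from 40 to 100 (shBRG1 up). Genes with shBRG1 alone ranged from 1856 to 2145 lower and 1339 to 2032 higher, and with shMITF alone from 147 to 297 lower and 326 to 647 higher. The 297 came without shMITF replicate 1. shBRG1 effects ranged from 3431 to 3919 and 4532 to 5401, shMITF effects from 681 to 1233 and 1109 to 2075, and the Hermes 3A differences from 331 to 619 and 650 to 1132.

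Named genes whose value changed sign in the direct comparison were IL24 3.89, BIRC7 0.17, TEAD4 -0.25, KDR 1.13, POLE2 -0.13, TP53I3 -0.40, IL11 3.39, IGF1 -1.09, OAS1 0.31, TM7SF2 0.67, CHAC1 0.45, MTHFD2 -0.25, COL6A3 1.19, COL13A1 2.73, TPM2 0.93, BMF 0.69, RPLP0 -0.39, H1-2 0.16, H2BC26 2.28, H2BC21 1.05, H2AC6 2.22, ZNF610 0.75, ZNF296 0.49 and PCDHGC5 1.81. With a library left out, ZNF296 ranged from -2.52 to 0.54 (the latter without shMITF replicate 2), CIITA from -0.030 to 1.59 and LINC01354 from -0.49 to 4.35 (the lowest of both without shSCR2 replicate 2). Where an alternative's own construction does not show it, the cause was not tested.

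A replicate block within each experiment gave 3418 lower and 2521 higher differences and kept 5765 calls. Same-numbered libraries did not deviate together (correlations of -0.02, -0.02 and 0.04 for shSCR1 with shBRG1 and 0.09 for shSCR2 with shMITF), so the numbers were not taken as pairs. In Hermes 3A the block gave 403 lower and 822 higher. The shMITF side rests on 2 libraries per group with a wider spread than the shBRG1 side.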

Other observations

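Further gene groups are read in 501Mel cells against a background of 15.5% lower and 11.8% higher over all genes. Of the 14918 protein-coding genes among them 2858 were lower and 1472 higher. Of 19 growth factor ligand genes 1 was lower (PDGFD) and 4 were higher. HBEGF, a ligand of the EGF receptor, stood at 17.9, 15.7 and 14.3 CPM with shSCR1, 43.6, 45.6 and 43.96 with shBRG1, 18.3 and 13.3 with shSCR2 and 15.9 and 9.59 with shMITF, a difference of 1.77 ± 0.27 (edgeR adjusted p = 2.1e-04). PDGFC and FGF7 gave 1.08 ± 0.16 and 1.30 ± 0.33, while IGF1 (2.10 ± 0.61) lay on the other side directly (-1.09 ± 0.43) and lost its call without shSCR2 replicate 2. Of 12 undifferentiated-state transcription factors 3 were lower and 2 higher. POU3F2, a neural factor of invasive melanoma cells, stood at 63.9, 75.95 and 73.9 CPM with shSCR1, 17.4, 14.6 and 15.1 with shBRG1, 28.7 and 44.7 with shSCR2 and 56.2 and 34.8 with shMITF, a difference of -2.48 ± 0.33 (edgeR adjusted p = 2.1e-04), and RUNX1 was higher (2.03 ± 0.30). Of 10 receptors of that state 3 were lower and 1 higher, TGFBR2 giving -2.07 ± 0.16 and DDR2 -2.19 ± 0.24.

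Of 16 BCL2 family genes 4 were lower and 2 higher. BCL2A1, a survival factor and MITF target, stood at 49.8, 50.2 and 47.7 CPM with shSCR1, 2.68, 3.01 and 3.03 with shBRG1, 13.6 and 28.1 with shSCR2 and 7.02 and 10.5 with shMITF. It fell with both hairpins and deeper with shBRG1, a difference of -2.81 ± 0.40 (edgeR adjusted p = 3.3e-04). Its pro-death relative PMAIP1 was higher (1.56 ± 0.23). Of 15 contractile actin genes 3 were lower and 2 higher, and CNN1, a calponin of smooth muscle, stood at 0.29, 0.479 and 0.317 CPM with shSCR1, 12.7, 13.2 and 11.9 with shBRG1, 0.108 and 0.134 with shSCR2 and 0.266 and 0.282 with shMITF, a difference of 3.98 ± 0.53 (edgeR adjusted p = 1.5e-05). Of 15 MAPK feedback and target genes 3 were lower and 2 higher, with DUSP4 at -1.05 ± 0.11 and EGR1 at 1.41 ± 0.45, the former lost without any 1 of 3 libraries and the latter without any 1 of 6. Directly none of these 15 was lower and 5 were higher. Of 22 ATF4 and amino acid stress genes 5 were lower and 2 higher, and of 27 glycolysis and hypoxia genes 5 and 2, with PFKP, a phosphofructokinase, at -2.27 ± 0.10. Of 82 ribosomal protein genes 5 were lower and 4 higher. RPL3 stood at 915, 1025 and 973 CPM with shSCR1 and 249, 281 and 257 with shBRG1, a difference of -1.71 ± 0.11 (edgeR adjusted p = 1.2e-08), in a family with many processed copies that reads could be shared with. Keratinocyte markers summed to 0.324 to 0.912 CPM over the 10 libraries and endothelial markers to 0.347 to 0.897.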
